A study of Mus musculus with 24 samples.

Results

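The genes described are 33 lysosomal proteins, cathepsins and their regulators, chosen by symbol from a fixed list, and all 33 had a row among the 14785 genes of the deposited table. By role they comprise 8 cysteine cathepsins and legumain, 3 aspartic and serine proteases, 7 glycosidases, 5 proteins of lipid handling, 8 membrane proteins and 2 regulators. They were measured by polyA RNA sequencing of whole kidney from male C57/BL6 mice with an age label of 8 weeks. Groups of 4 animals each had sham surgery, ligation of 1 ureter (unilateral ureteral obstruction) for 2 days (UUO2) or 7 days (UUO7), or 7 days of ligation followed by reimplantation of the ureter and then 1 week (R1W), 2 weeks (R2W) or 4 weeks (R4W) of recovery. The 4 animals of a group were selected for sequencing from a larger number operated on, per the series' design text. No animal carried a transgene or drug treatment in the labels, and 1 sham group served as control for every time. R4W replicate 2 is placed at 4 weeks by its title and at 2 weeks by its treatment label, so results of R4W were also computed with it in R2W.

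Lysosomes are acidic organelles in which proteases, glycosidases and lipases break down material taken up by endocytosis, phagocytosis or autophagy. Most of the soluble enzymes reach them bound to mannose 6-phosphate receptors, while membrane proteins such as LAMP1 and LAMP2 line the organelle and the V-ATPase acidifies it. In the kidney, proximal tubule cells use lysosomes to degrade filtered proteins, and macrophages that enter an injured kidney are rich in them. The transcription factor TFEB and its relatives TFE3, MITF and TFEC bind the E-box CACGTG and closely related letters in promoters of many lysosomal genes. Because each library held RNA from whole tissue, fewer cells of a type and less RNA per cell cannot be told apart.

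The E-box was looked for in RefSeq promoters of the GRCm38.p6 build, taken from 250 bases before to 50 bases after the gene start. Promoters were found for 29 of the 33 genes, and 9 of those 29 (31%) held CACGTG, compared with 8.09% of 27025 genes with a promoter and 11.5% of the 10654 of these that are in the expression table. The motif reads the same on both strands. Its 8-letter form TCACGTGA, which contains it, was in 4 of the 29 (13.8%), against 1.12% of all genes and 2.14% of those in the expression table. The 10-letter CLEAR element, which contains both, was in 0 of 29, against 0.37% and 0.779%. The 9 windows of 30 bases are shown because they let the genes with the motif be followed through the values, with the CACGTG in capitals and the strand of the gene read 5′ to 3′. They lie at chr2:164833766-164833795 (plus strand, Ctsa), chr7:142387908-142387937 (minus, Ctsd), chr13:64370739-64370768 (minus, Ctsl), chrX:134601182-134601211 (minus, Gla), chr9:114401018-114401047 (plus, Glb1), chr8:13159134-13159163 (plus, Lamp1), chr12:102439124-102439153 (minus, Lgmn), chr8:3500462-3500491 (plus, Mcoln1) and chr11:101070009-101070038 (plus, Naglu).
Ctsa: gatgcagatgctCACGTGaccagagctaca
Ctsd: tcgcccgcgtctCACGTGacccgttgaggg
Ctsl: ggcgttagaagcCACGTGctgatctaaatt
Gla: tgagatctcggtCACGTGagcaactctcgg
Glb1: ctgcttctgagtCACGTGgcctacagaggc
Lamp1: acgtgaccacatCACGTGcggaacggagcc
Lgmn: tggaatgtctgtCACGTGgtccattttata
Mcoln1: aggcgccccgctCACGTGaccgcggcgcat
Naglu: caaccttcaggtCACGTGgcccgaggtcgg
The windows of Ctsa, Ctsd, Gla and Mcoln1 hold the 8-letter form, and the Lamp1 promoter held CACGTG at the most places, 4. A match is a description of letters and does not show binding.

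Levels are given as rescaled FPKM (fragments per transcript length and library total, divided by 1 factor per library), with SD over 4 animals. Differences are on the log2(rescaled FPKM + 1) scale with the standard error from limma, and a call means a p under 0.05 after Benjamini-Hochberg adjustment over all 14785 genes. The factors averaged 0.809 in sham and 1.13 in UUO7. Without them the median log2 difference of all genes between UUO7 and sham was 0.42, so the scale can decide the direction of small changes. The UUO2 libraries stood apart in the mitochondrial ribosomal RNA mt-Rnr1, at 2343 to 2832 FPKM compared with 342 to 709 FPKM in the other 20 libraries, and their descriptions in the labels are written in another way. Library handling and 2 days of obstruction cannot be told apart in UUO2. Sham replicate 2 held more adipose and urothelial marker RNA than the other sham libraries, with sums of 337 against at most 60.5 and of 39.6 against at most 2.88 rescaled FPKM. R4W replicates 1 and 3 stood higher still, with adipose sums of 1570 and 380 and urothelial sums of 134 and 96.8, compared with adipose sums of 58.2 and 68.2 and urothelial sums of 39.6 and 74.4 in R4W replicates 2 and 4. Of the 33 genes, 14 were higher and 12 lower than sham in R4W without replicate 1, and 12 and 13 without replicate 3, beside 14 and 13 with both. All 8 proximal tubule markers were above 0 in every library, but so were the macrophage and fibroblast markers, so this does not identify the tissue. The proximal tubule sum ranged from 4330 to 5464 in sham, from 755 to 972 in UUO7 and from 1879 to 2701 in R4W.

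The question the series addresses is what obstruction changes in the kidney and what is restored after its relief. Obstruction raised some lysosomal genes and lowered others, and the sets differed between 2 and 7 days. At 2 days 17 of the 33 genes were higher than in sham and 5 lower, against 25.3% and 25.5% of all genes. At 7 days 15 were higher and 11 lower, against 36.5% and 36.5%, shares close to the background. The median difference of the 33 genes was 0.34 at 2 days and 0.16 at 7 days, beside -0.01 and 0.01 over all genes. With the deposited values in place of the rescaled ones, 25 genes were higher and 6 lower at 7 days, against 60.1% and 17.8% of all genes.

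After reversal the counts against sham stayed close to those at 7 days. At 1 week 13 genes were higher and 13 lower, against 33.7% and 34.6% of all genes. At 2 weeks 14 were higher and 12 lower, against 31.1% and 32.5%. At 4 weeks 14 were higher and 13 lower, against 28.9% and 31.1%, and with R4W replicate 2 left in R2W these counts were 11 and 13. With the deposited values the counts were 21 and 4 at 1 week (59.4% and 14.7% of all genes), 22 and 4 at 2 weeks (56.1% and 12.9%) and 19 and 4 at 4 weeks (54.8% and 11.6%). The 5 comparisons with sham share the same 4 sham libraries. Across UUO2, UUO7 and R4W, 10 genes were higher than sham each time (Asah1, Cd68, Ctsc, Ctsd, Ctss, Gla, Grn, Hexa, Laptm5 and Npc2) and 4 were lower each time (Ctsh, Glb1, Lipa and Man2b1), against 11.3% and 14.6% of all genes. Of those 4, only Glb1 was called lower in all 3 with the deposited values. Mcoln1 and Tfeb passed the threshold in none of these 3 on the rescaled values. Of the members not called in UUO7 against sham, Ctsb, Lgmn, Gusb, Npc1, Cd63, Mcoln1 and Tfeb were called higher there with the deposited values. The same held in UUO2 for Tpp1, Lamp1, Lamp2, Laptm4a, Mcoln1, Scarb2 and Tfeb, and in R4W for Ctsb, Ctsz, Gusb, Psap and Tfeb.

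**Figure D1:**
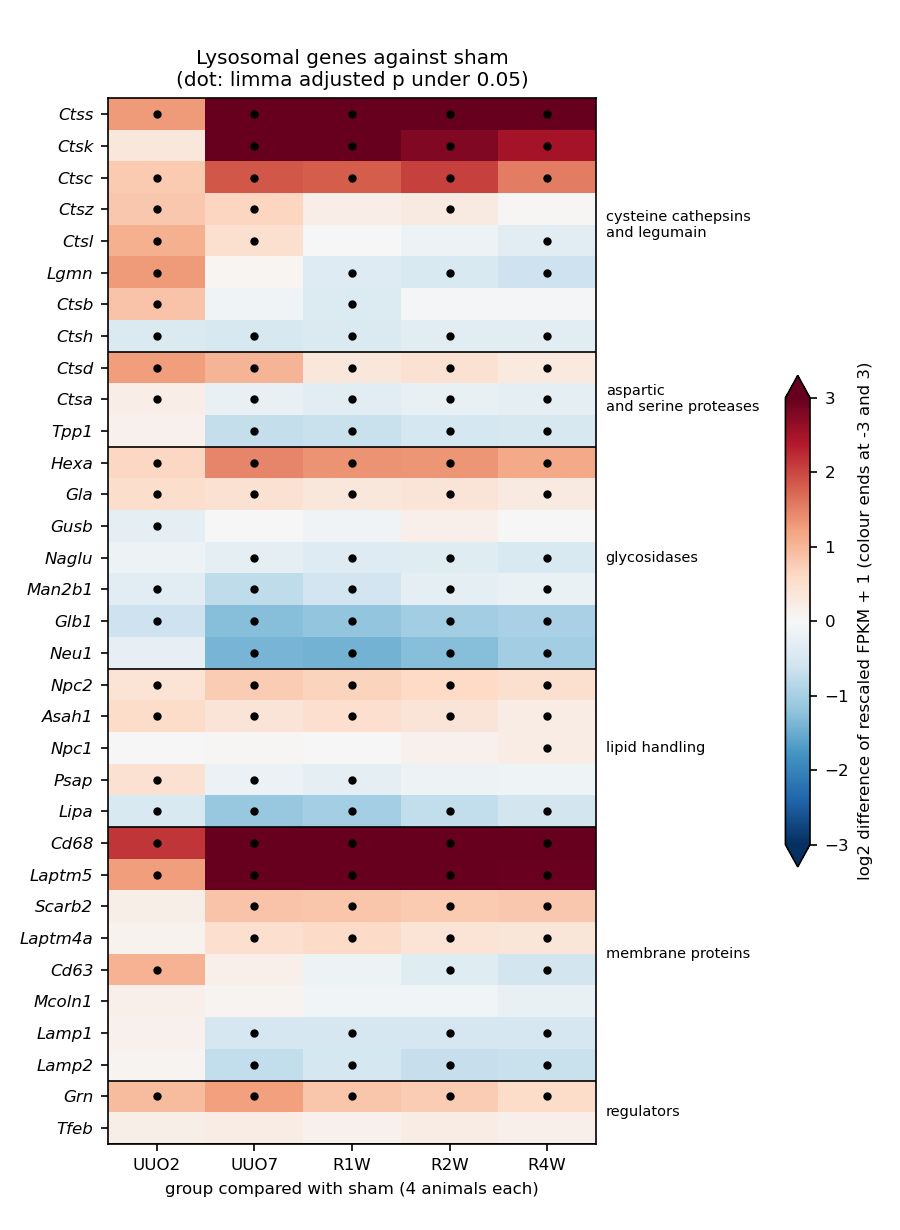
Log2 difference of rescaled FPKM + 1 between each group and sham for the 33 lysosomal genes (rows, by role), as colour from -3 to 3, with a dot where the limma adjusted p was under 0.05. Ctss, Cd68 and Laptm5 are dark red from UUO7 to R4W, with differences of 4.34, 3.45 and 3.30 in UUO7, while Neu1, Glb1 and Lipa are blue there, at -1.39, -1.28 and -1.13.

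Among the cysteine cathepsins, Ctss rose most at 7 days and stayed high after reversal. It encodes cathepsin S, which trims the invariant chain for antigen presentation on MHC class II. Its level was 6.69, 9.86, 5.52 and 6.80 rescaled FPKM in the 4 sham animals, 23.7, 14.6, 13.7 and 25.7 in UUO2 and 140, 185, 172 and 155 in UUO7. At 4 weeks of recovery it was 124, 187, 182 and 96.1. Every obstructed or recovering kidney was above every sham kidney, and R4W overlapped with UUO7. The difference from sham was 1.29 ± 0.26 in UUO2, 4.34 ± 0.26 in UUO7 and 4.15 ± 0.26 in R4W (SE), with adjusted p of 0.0004062, 5.106e-11 and 4.522e-10. Between R4W and UUO7 it was -0.19 ± 0.26, which did not pass the threshold (adjusted p = 0.5759).

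Ctsk, which encodes the collagen-degrading cathepsin K, is the neighbour of Ctss on chromosome 3. The genes lie on the plus strand at 95499256 to 95509362 and 95526786 to 95556403 in the deposited coordinates, with 17423 bases and 0 annotated genes between them. Ctsk was at 1.92, 3.16, 2.07 and 2.01 rescaled FPKM in sham, and at 3.30, 2.64, 2.99 and 3.66 in UUO2, where the groups overlapped. In UUO7 it was 24.0, 29.0, 28.0 and 25.4, a difference from sham of 3.08 ± 0.17 (adjusted p = 1.617e-11). Unlike Ctss it was then lower at 4 weeks of recovery, at 14.4, 20.0, 20.0 and 15.6, with all 4 animals below all UUO7 animals (-0.59 ± 0.17, adjusted p = 0.007389). Whether the 2 genes differ in that fall was not tested.

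Ctsc, the dipeptidyl peptidase that activates granule serine proteases, rose in all 5 groups. Its mean was 10.3 ± 1.55 in sham, 18.7 ± 3.60 in UUO2, 40.2 ± 5.92 in UUO7 and 32.3 ± 7.52 in R4W. The difference from sham in UUO7 was 1.86 ± 0.18 (adjusted p = 9.353e-09).

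A second set of cysteine proteases peaked at 2 days. Lgmn, the asparagine-specific legumain that processes other cathepsins, was at 358, 334, 382 and 365 rescaled FPKM in sham and at 1001, 578, 1088 and 923 in UUO2. By 7 days it was back at 402, 386, 401 and 322, which overlapped with sham (0.07 ± 0.14, adjusted p = 0.6799), although with the deposited values it was called higher (0.55, adjusted p = 0.0007179). At 4 weeks after reversal it was 213, 239, 247 and 231, below every sham animal. The difference from sham was 1.28 ± 0.14 in UUO2 (adjusted p = 3.175e-07) and -0.63 ± 0.14 in R4W (adjusted p = 0.0005732). That fall below sham did not pass with the deposited values, at -0.25 with an adjusted p of 0.09745.

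Ctsl and Ctsb, which encode the endopeptidases cathepsin L and cathepsin B, were also highest in UUO2 but differed from each other in the later groups. Ctsl was at 371, 326, 382 and 364 in sham, 796, 580, 908 and 771 in UUO2, 522, 512, 539 and 451 in UUO7, and 262, 285, 295 and 295 in R4W. All UUO2 and UUO7 animals were above sham and all R4W animals below it, with differences of 1.06 ± 0.10, 0.49 ± 0.10 and -0.34 ± 0.10. The last became 0.03 with the deposited values, so the fall of Ctsl below sham rests on the scaling. Ctsb averaged 315 ± 14.9 in sham and 568 ± 50.7 in UUO2 (0.84 ± 0.10, adjusted p = 6.301e-07). It was 294 ± 30.2 in UUO7, a difference of -0.10 that was not called and that turned to 0.38 with the deposited values (adjusted p = 0.003571). Ctsb was lower than sham at 1 week of recovery (-0.40 ± 0.10, adjusted p = 0.001017), which turned to 0.05 with the deposited values (adjusted p = 0.7119). In R4W Ctsb averaged 310.5 ± 29.6 and was not called against sham on the rescaled values. The authors' deposited table differs for Ctsb, with -0.0163 (adjusted p = 0.902) for R1W against sham and 0.317 (adjusted p = 3.93e-07) for UUO7 against sham. For R4W against R1W it had 0.0505 (adjusted p = 0.799), and the cause of the difference was not tested.

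The remaining members of this class were Ctsz and Ctsh. Ctsz, a carboxypeptidase, rose from 142 ± 8.36 in sham to 249 ± 35.0 in UUO2 and 223 ± 15.1 in UUO7, and stood at 148 ± 20.9 in R4W. Ctsh, an aminopeptidase, was the class member that was lower throughout, from 216 ± 15.7 in sham to 160 ± 17.0 in UUO2, 154 ± 10.3 in UUO7 and 174 ± 7.31 in R4W. With the deposited values the Ctsh difference was 0.00 in UUO7 and 0.07 in R4W, and neither was called. Of the 8 genes, 6 were higher and 1 lower in UUO2, 5 higher and 1 lower in UUO7, and 3 higher and 3 lower in R4W. As deposited, 7 were higher and 0 lower in UUO7, and 5 higher and 0 lower in R4W. Over all genes the shares higher and lower were 25.3% and 25.5% in UUO2, 36.5% and 36.5% in UUO7, and 28.9% and 31.1% in R4W on the rescaled values, and the rescaled R4W counts are close to them. The deposited values gave 60.1% and 17.8% of all genes in UUO7 and 54.8% and 11.6% in R4W.

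**Figure D2:**
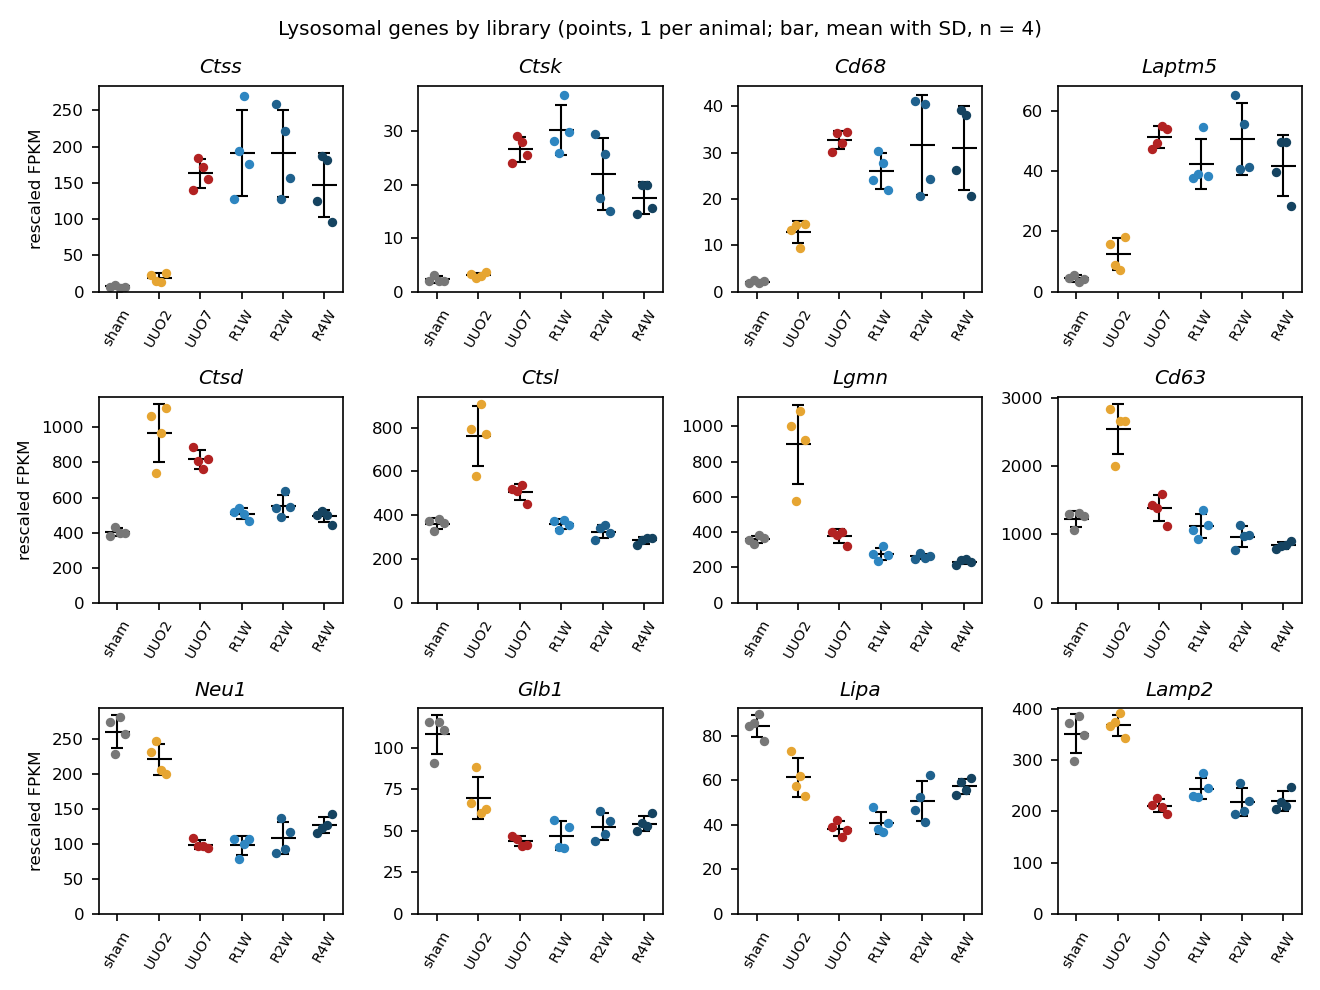
Rescaled FPKM of 12 lysosomal genes in each of the 24 libraries (points, 1 per animal, on linear axes from 0), by group, with the mean and SD (bars, n = 4). Ctss, Ctsk, Cd68 and Laptm5 are high from UUO7 on, Ctsd, Ctsl, Lgmn and Cd63 are highest in UUO2, and Neu1, Glb1, Lipa and Lamp2 are low from UUO7 on.

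Of the other proteases, Ctsd rose and Tpp1 fell. Ctsd encodes cathepsin D, the main aspartic protease of lysosomes. It was at 381, 432, 399 and 397 rescaled FPKM in sham, 1065, 739, 965 and 1110 in UUO2, and 887, 805, 760 and 817 in UUO7. By R4W it was 499, 526, 502 and 446, still above each sham animal. The differences from sham were 1.25 ± 0.10 in UUO2, 1.02 ± 0.10 in UUO7 and 0.29 ± 0.10 in R4W, the last with an adjusted p of 0.01968. That R4W call was lost without sham replicate 1 or R4W replicate 2, or with R4W replicate 2 placed in R2W (adjusted p = 0.0545, 0.0581 and 0.0518).

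Tpp1, a tripeptidyl peptidase lost in a childhood neuronal storage disease, averaged 80.8 ± 5.92 in sham and 87.8 ± 6.88 in UUO2, where the groups overlapped. It was 48.7 ± 3.47 in UUO7 and 57.4 ± 3.13 in R4W, a difference from sham of -0.72 ± 0.08 and -0.48 ± 0.08 (adjusted p = 1.983e-07 and 6.1e-05). The R4W difference of Tpp1 was -0.11 and not called with the deposited values. Ctsa, a carboxypeptidase that also shields Neu1 and Glb1 from degradation, averaged 192 ± 15.2 in sham, 222 ± 9.78 in UUO2 and 163 ± 2.69 in UUO7. It was called higher at 2 days (0.21 ± 0.07) and lower at 7 days (-0.23 ± 0.07), and the second direction turned to 0.25 with the deposited values. The call at 2 days was lost without sham replicate 2 or UUO2 replicate 3 (adjusted p = 0.0657 and 0.0516). Its fall from UUO2 to UUO7 was -0.44 ± 0.07 (adjusted p = 1.135e-05) and was not called with the deposited values (-0.09, adjusted p = 0.2825).

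Of the 7 glycosidases 2 were higher and 4 lower at 7 days, against 36.5% of all genes in each direction. The deposited values gave 4 higher and 3 lower, against 60.1% and 17.8%, and the median difference was -0.27 rescaled and 0.19 as deposited. Neu1, the sialidase that removes terminal sialic acids, was at 274, 228, 282 and 257 rescaled FPKM in sham and at 231, 247, 205 and 199 in UUO2, where the groups overlapped. In UUO7 it was 108, 96.5, 96.8 and 94.4. In R4W it was 115, 122, 127 and 142, above all UUO7 animals and below all sham animals. The difference from sham was -1.39 ± 0.13 in UUO7 and -1.04 ± 0.13 in R4W, and that between R4W and UUO7 was 0.35 ± 0.13 (adjusted p = 0.02627). The last call was lost without any 1 of UUO7 replicates 2, 3 and 4 or R4W replicate 4 (adjusted p from 0.0516 to 0.0858).

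Glb1, the lysosomal beta-galactosidase, was already lower at 2 days. It was at 116, 90.7, 115 and 111 in sham, 66.6, 88.5, 61.0 and 63.3 in UUO2 and 47.1, 45.4, 41.1 and 41.3 in UUO7. All animals of both obstructed groups were below all sham animals, with differences of -0.63 ± 0.13 and -1.28 ± 0.13 (adjusted p = 0.0004813 and 2.864e-08). In R4W it averaged 54.4 ± 4.61. That was above UUO7 by 0.31 ± 0.13, which missed the threshold (adjusted p = 0.05834), although the 4 animals of R4W lay above the 4 of UUO7. The call was made in the fit on the 2 groups alone (adjusted p = 0.00919) and without UUO2 (adjusted p = 0.0472).

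Man2b1, an alpha-mannosidase, fell from 55.7 ± 4.41 in sham to 43.8 ± 5.11 in UUO2 and 32.3 ± 1.58 in UUO7, and was 48.2 ± 2.48 in R4W. R4W differed from UUO7 by 0.56 ± 0.08 (adjusted p = 2.245e-05) and from sham by -0.20 ± 0.08 (adjusted p = 0.02965). The difference of R4W from sham turned to 0.17 with the deposited values, and its call was lost without sham replicate 1 or 3 or R4W replicate 1. Naglu, which acts on heparan sulfate, averaged 29.4 ± 2.62 in sham, 24.1 ± 2.09 in UUO7 and 21.2 ± 1.25 in R4W. Its UUO7 difference of -0.27 ± 0.07 turned to 0.19 with the deposited values, and the R4W difference of -0.45 ± 0.07 was then -0.08 and not called.

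Hexa, the alpha subunit of beta-hexosaminidase, moved the other way. It was at 21.1, 28.8, 23.2 and 24.9 rescaled FPKM in sham, 39.4, 33.6, 34.5 and 44.6 in UUO2, 64.5, 66.0, 79.4 and 67.6 in UUO7 and 52.7, 63.8, 63.1 and 43.5 in R4W. Each group was wholly above sham, and the differences were 0.61 ± 0.13, 1.47 ± 0.13 and 1.15 ± 0.13. Gla, the alpha-galactosidase deficient in Fabry disease, had the lowest sham level of the 33 genes, 1.95 ± 0.14. It rose to 3.23 ± 0.39 in UUO2 and 3.01 ± 0.23 in UUO7 (0.52 ± 0.09 and 0.45 ± 0.09), on a log scale that understates changes at such levels. Gusb, a beta-glucuronidase, was lower only in UUO2 among the 5 comparisons with sham on the rescaled values (-0.29 ± 0.09, adjusted p = 0.009241), a call lost with the deposited values and with a fit on the 2 groups alone (adjusted p = 0.1592 and 0.0622).

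In lipid handling, Lipa fell and Npc2, Asah1 and, at 2 days, Psap rose. Lipa, the acid lipase that frees cholesterol from its esters, was at 84.5, 85.7, 89.6 and 77.8 rescaled FPKM in sham, 73.3, 57.3, 61.9 and 53.0 in UUO2, 39.0, 42.0, 34.2 and 37.5 in UUO7 and 53.2, 59.1, 55.6 and 60.8 in R4W. The groups did not overlap with sham, and R4W lay between UUO7 and sham. The differences from sham were -0.46 ± 0.11, -1.13 ± 0.11 and -0.55 ± 0.11, and R4W was above UUO7 by 0.57 ± 0.11 (adjusted p = 0.0004066). The R4W difference from sham was -0.18 and not called with the deposited values.

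Npc2, the soluble carrier that hands cholesterol to Npc1, rose from 48.2 ± 1.12 in sham to 63.9 ± 2.58 in UUO2 and 83.1 ± 7.29 in UUO7, and was 68.4 ± 7.82 in R4W. Npc1, the membrane cholesterol exporter, was at 5.51 ± 0.35 in sham and 5.63 ± 0.50 in UUO7, and was called higher than sham in R4W alone on the rescaled values (0.23 ± 0.09, adjusted p = 0.02845). That call for Npc1 was lost without sham replicate 1, 2 or 4 or without R4W replicate 2 or 3 (adjusted p from 0.0527 to 0.0795). Asah1, the acid ceramidase, averaged 36.7 ± 3.18 in sham, 54.1 ± 4.63 in UUO2, 47.9 ± 3.99 in UUO7 and 43.2 ± 2.97 in R4W, with differences of 0.55 ± 0.09, 0.38 ± 0.09 and 0.23 ± 0.09. Without sham replicate 2 or 4, or R4W replicate 2, 3 or 4, the R4W difference of Asah1 lost its call (adjusted p from 0.0571 to 0.124).

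Psap, the precursor of the saposins that present lipids to their hydrolases, was one of the most abundant members. It was at 987, 875, 999 and 950 in sham and 1313, 1459, 1253 and 1178 in UUO2, with no overlap (0.45 ± 0.08, adjusted p = 0.0001137). In UUO7 it was 862, 768, 925 and 812. That difference of -0.18 ± 0.08 had an adjusted p of 0.04916, was lost without sham replicate 1, 3 or 4 or UUO7 replicate 1, 2 or 4 (adjusted p from 0.0602 to 0.158), and turned to 0.31 with the deposited values.

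In UUO7 the membrane proteins held both the most strongly raised genes after Ctss and a pair that fell. Cd68, a glycoprotein of macrophage lysosomes, was at 1.84, 2.55, 1.77 and 2.23 rescaled FPKM in sham and 13.4, 14.3, 9.43 and 14.5 in UUO2. It reached 30.2, 34.2, 32.1 and 34.5 in UUO7 and was 26.2, 39.1, 38.2 and 20.6 in R4W. Its differences from sham were 2.16 ± 0.21, 3.45 ± 0.21 and 3.33 ± 0.21, and no group overlapped with sham. Laptm5, a lysosomal membrane protein of blood cells, averaged 4.40 ± 1.03 in sham, 12.6 ± 5.34 in UUO2, 51.4 ± 3.65 in UUO7 and 41.8 ± 10.2 in R4W (1.26 ± 0.24, 3.30 ± 0.24 and 2.98 ± 0.24).

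Scarb2, which carries glucocerebrosidase to lysosomes, was at 10.2, 11.6, 11.1 and 10.1 in sham and at 18.7, 20.6, 20.7 and 21.4 in UUO7, a difference of 0.86 ± 0.08. It stayed at 19.5 ± 1.24 in R4W (0.81 ± 0.08). Laptm4a, a broadly expressed relative of Laptm5, rose from 193 ± 3.10 to 276 ± 16.4 in UUO7 and was 250 ± 5.34 in R4W (0.51 ± 0.05 and 0.37 ± 0.05).

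Lamp1 and Lamp2, the main structural glycoproteins of the lysosomal membrane, fell between 2 and 7 days. Lamp2 was at 373, 299, 387 and 349 in sham, 366, 374, 392 and 343 in UUO2, 213, 227, 209 and 195 in UUO7, and 204, 218, 211 and 248 in R4W. UUO2 overlapped with sham, and the later groups lay wholly below both. The UUO7 difference from sham was -0.73 ± 0.09 (adjusted p = 5.186e-07) and that in R4W -0.67 ± 0.09. Lamp1 averaged 605 ± 31.2 in sham, 658 ± 39.5 in UUO2, 428 ± 20.4 in UUO7 and 423 ± 9.59 in R4W (-0.50 ± 0.07 and -0.51 ± 0.07). The Lamp1 difference in UUO7 was -0.01 and not called with the deposited values, while Lamp2 kept its call at -0.25.

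Cd63, a tetraspanin of late endosomes and of the vesicles they release, was the most abundant member in sham. It was at 1294, 1059, 1309 and 1267 rescaled FPKM in sham and 2842, 2009, 2658 and 2660 in UUO2, with no overlap (1.04 ± 0.14, adjusted p = 3.422e-06). In UUO7 it was 1438, 1390, 1587 and 1128, which overlapped with sham (0.16 ± 0.14, adjusted p = 0.2872) but was called higher with the deposited values (0.65, adjusted p = 3.479e-05). In R4W it was 783, 837, 839 and 911, below every sham animal. The R4W difference of -0.54 ± 0.14 was -0.17 and not called with the deposited values. Mcoln1, the TRPML1 calcium channel, averaged 51.6 ± 2.70 in sham, 55.4 ± 8.40 in UUO7 and 44.0 ± 2.59 in R4W. It was called lower in R4W than in UUO7 (-0.32 ± 0.10, adjusted p = 0.01389), and not without UUO7 replicate 3 (adjusted p = 0.0733). The authors' deposited table differs for Mcoln1, with -0.0286 (adjusted p = 0.783) for R4W against UUO7 and -0.396 (adjusted p = 1.83e-07) for UUO7 against sham. It was also called lower than sham in R1W, R2W and R4W in the authors' deposited table, and the cause of the difference was not tested.

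Of the regulators, Grn rose and Tfeb was not called in any of the 9 comparisons on the rescaled values. Grn encodes progranulin, a secreted and lysosomal protein needed for enzyme activity. It was at 87.1, 93.5, 89.6 and 94.7 rescaled FPKM in sham, 185, 152, 185 and 194 in UUO2, 203, 193, 265 and 201 in UUO7, and 132, 135, 143 and 129 in R4W. All were above sham, with differences of 0.96 ± 0.11, 1.22 ± 0.11 and 0.56 ± 0.11. Tfeb was at 20.4, 18.8, 18.1 and 18.2 in sham and 21.6, 21.8, 24.2 and 20.5 in UUO7. The UUO7 animals all lay above the sham animals by a narrow margin, and the difference of 0.21 ± 0.10 had an adjusted p of 0.0548. That value was under 0.05 in 4 alternatives: the deposited values (0.67), the fit on the 2 groups alone (adjusted p = 0.0166), and without sham replicate 1 or UUO7 replicate 4 (adjusted p = 0.0425 and 0.0458). Its relative Tfe3 rose from a range of 10.5 to 11.6 in sham to one of 16.8 to 20.2 in UUO7 (0.68 ± 0.10, adjusted p = 3.417e-06), and was at 12.8 to 15.6 in R4W (0.34 ± 0.10).

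Tfec, another relative, averaged 9.72 ± 1.45 in sham, 14.0 ± 0.74 in UUO2, 7.75 ± 0.73 in UUO7 and 5.81 ± 0.76 in R4W. It was higher than sham in UUO2 (0.49 ± 0.10, adjusted p = 0.0004918) and lower in R4W (-0.65 ± 0.10, adjusted p = 2.28e-05). The UUO7 difference of Tfec, -0.29 ± 0.10, turned to 0.15 with the deposited values. That call was also lost without sham replicate 1 or 3 or UUO7 replicate 3 (adjusted p = 0.0546, 0.0735 and 0.0637). Mitf was at 3.46 ± 0.39 in sham and 3.18 ± 0.35 in UUO7, with no call (adjusted p = 0.3495). Of the 9 genes with CACGTG in the promoter window, 3 were higher and 4 lower in UUO7 than in sham, and of the 20 without it 11 were higher and 6 lower, against 36.5% in each direction over all genes. Their median differences were 0.07 and 0.58, a description with no test.

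**Figure D3:**
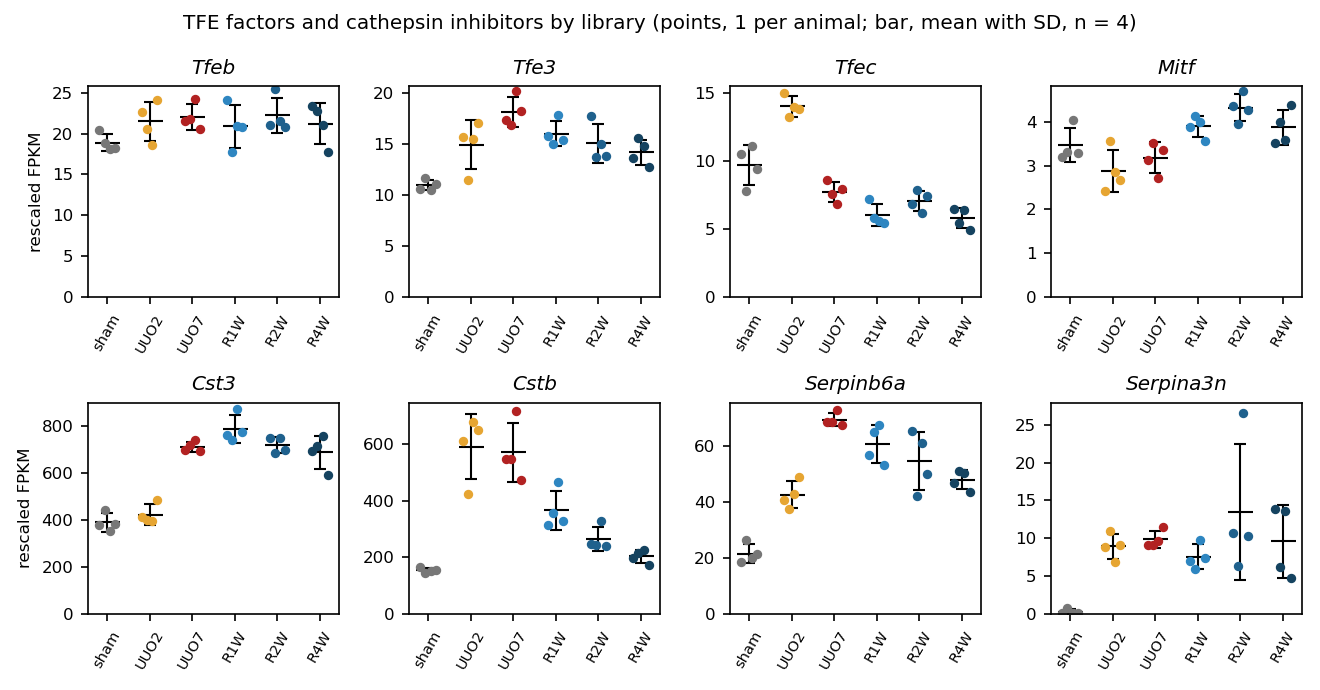
Rescaled FPKM of Tfeb, its relatives Tfe3, Tfec and Mitf, and 4 cathepsin inhibitors in each of the 24 libraries (points, 1 per animal, on linear axes from 0), with the mean and SD (bars, n = 4). Tfeb averages 18.9 in sham and 22.0 in UUO7, Tfec is highest in UUO2 at 14.0, and Cstb averages 154 in sham, 202 in R4W and 571 in UUO7.

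The wider lysosomal genes were 124 genes in 6 lists, of which 118 had a row. At 7 days more of them fell than rose on the rescaled values. With the deposited values more rose than fell, as over all genes. In UUO7 against sham 24 were higher and 70 lower, against 36.5% of all genes in each direction, and their median difference was -0.31, beside 0.01 over all genes. The deposited values gave 55 higher and 30 lower, against 60.1% and 17.8% of all genes. That is a smaller share higher and a larger share lower than over all genes. The counts of the 6 lists are to be read against the same shares. The V-ATPase subunits had 0 higher and 14 lower of 20, and the median of their differences was -0.52. At an unadjusted p under 0.05 the numbers higher and lower were also 0 and 14, against 37.4% and 37.3% of all genes, and with the deposited values 9 were higher and 6 lower. Atp6v1a, the catalytic subunit, fell by 1.40 and Atp6v0a4, a subunit of intercalated cells, by 1.54.

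Among 36 other hydrolases 11 were higher and 18 lower (19 and 11 as deposited), with Pla2g15, a lysosomal phospholipase, up by 1.38 ± 0.15 and Dnase2a, the acid DNase, up by 1.06 ± 0.13. Arsb, which removes sulfate from dermatan and chondroitin sulfate, fell from 61.2 ± 7.79 rescaled FPKM in sham to 11.4 ± 1.52 in UUO7 (-2.32 ± 0.17). Ppt2, a thioesterase, differed by -1.49 ± 0.15. Of 27 transporters and membrane proteins 6 were higher and 17 lower (10 and 6 as deposited). The tetraspanin Tspan8 and the cation channel Tpcn2 rose, each by 1.10. The amino acid transporter Slc36a1 and the nucleoside transporter Slc29a3 differed by -1.24 and -1.12.

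Of 12 genes that sort and mature lysosomal enzymes 2 were higher and 6 lower in UUO7 (8 and 3 as deposited). Igf2r, the large mannose 6-phosphate receptor, fell from 17.5 ± 0.70 to 9.13 ± 0.64 (-0.87 ± 0.09), and the adaptor Gga2 differed by -0.90 ± 0.09. The 2 that rose were clathrin heavy chain Cltc (0.27 ± 0.06) and Gga3 (0.23 ± 0.09, adjusted p = 0.03206), the latter lost without sham replicate 1, 3 or 4 or UUO7 replicate 1, 2 or 4. Among 19 genes of TFE factors and nutrient signalling 1 was higher, Tfe3, and 15 were lower, compared with 5 higher and 4 lower as deposited. The kinase gene Mtor went from 62.5 ± 12.8 in sham to 10.3 ± 2.05 in UUO7 (-2.48 ± 0.25) and Fnip2 differed by -1.37 ± 0.11.

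All 4 cathepsin inhibitors with a row were higher at 7 days, and 5 others of that list are not analysed here. Cstb, the cytosolic stefin B, was at 166, 144, 151 and 154 rescaled FPKM in sham, 612, 422, 676 and 649 in UUO2, 546, 548, 718 and 472 in UUO7 and 197, 216, 225 and 172 in R4W. It rose by 1.91 ± 0.15 in UUO2 and 1.87 ± 0.15 in UUO7, and the difference of R4W from UUO7 was -1.48 ± 0.15 (adjusted p = 1.549e-06). Cst3, the secreted cystatin C, averaged 389 ± 38.9 in sham, 712 ± 20.7 in UUO7 and 688 ± 70.6 in R4W (0.88 ± 0.09 and 0.82 ± 0.09). Serpina3n, a secreted serpin of a multigene family whose reads may be shared among copies, rose from 0.27 ± 0.32 to 9.83 ± 1.14 in UUO7 (3.12 ± 0.32). Macrophage and tubule markers also differed between UUO7 and sham, and their part in the counts of these lists was not tested.

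The direct comparison of UUO7 with UUO2 had 11 of the 33 genes higher and 13 lower, against 30% and 31.9% of all genes. Higher at 7 days were Cd68, Ctsc, Ctsk, Ctss, Grn, Gusb, Hexa, Laptm4a, Laptm5, Npc2 and Scarb2. Lower were Cd63, Ctsa, Ctsb, Ctsl, Glb1, Lamp1, Lamp2, Lgmn, Lipa, Man2b1, Neu1, Psap and Tpp1. Ctss and Ctsk had the greatest rises, 3.05 ± 0.26 and 2.74 ± 0.17, and Lgmn and Neu1 the greatest falls, -1.21 ± 0.14 and -1.15 ± 0.13. The calls of Ctsa and Man2b1 were lost with the deposited values, where Man2b1 differed by -0.08 (adjusted p = 0.3497). The call of Grn (0.26 ± 0.11, adjusted p = 0.03893) was lost without UUO2 replicate 2 or UUO7 replicate 3 (adjusted p = 0.148 and 0.186). The sum of the 33 genes was 8821 to 10577 rescaled FPKM in UUO2 and 6344 to 7185 in UUO7, compared with 5779 to 6604 in sham and 5167 to 5714 in R4W, where every animal was below every sham animal. As a share of all summed FPKM, which no scaling changes, it was 0.655% ± 0.015 in sham, 1.09% ± 0.080 in UUO2, 1.01% ± 0.0075 in UUO7 and 0.788% ± 0.054 in R4W (SD, n = 4), so R4W was below sham in the rescaled sum and above it in the share.

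In the first week after reversal 6 of the 33 genes fell and 0 rose relative to UUO7, against 7.14% lower and 7.26% higher of all genes. At an unadjusted p under 0.05 limma gave 7 lower and 2 higher, against 15% and 15.5% of all genes, so the 7 are near the background. The 6 were all proteases or progranulin: Ctsb, Ctsd, Ctsl, Ctsz, Grn and Lgmn. Ctsd went from 817 ± 52.2 to 508 ± 31.1 rescaled FPKM (-0.68 ± 0.10, adjusted p = 0.0006379), and Ctsl and Ctsz by -0.49 ± 0.10 and -0.45 ± 0.10 (adjusted p = 0.006257 and 0.008813). In these 3 genes every R1W animal lay below every UUO7 animal. Without R1W replicate 1, or without R1W replicate 4, the count was 3. The calls of Ctsb, Grn and Lgmn were each lost without 1 or another of several libraries, with adjusted p from 0.0515 to 0.118, 0.0538 to 0.0799 and 0.0626 to 0.0902. For Ctsb these were UUO7 replicates 1, 2 and 4 and R1W replicates 1, 3 and 4. For Grn they were UUO7 replicate 3 and R1W replicates 1 and 4, and for Lgmn UUO7 replicates 1, 2 and 3 and R1W replicates 1, 2 and 4.

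By 4 weeks 10 of the 33 genes were lower and 4 higher than in UUO7, against 23.2% and 25.1% of all genes. The 10 lower genes were Cd63, Ctsd, Ctsk, Ctsl, Ctsz, Grn, Laptm4a, Lgmn, Mcoln1 and Npc2, and the 4 higher were Lipa, Man2b1, Neu1 and Tpp1. Each of those 4 had been lower than sham at 7 days, and each was still lower than sham at 4 weeks on the rescaled values. Ctsl and Ctsd had the greatest falls, -0.83 ± 0.10 and -0.73 ± 0.10 (adjusted p = 1.024e-05 and 2.974e-05). Cd63 followed at -0.71 ± 0.14 and Lgmn at -0.69 ± 0.14. The count of higher genes was 7 with a fit on the 2 groups alone and 2 without UUO7 replicate 3, whose removal ended the calls of Neu1 and Tpp1. Tpp1 was also lost without R4W replicate 2 or 3 and with the deposited values (0.12, adjusted p = 0.2196), and Laptm4a without UUO7 replicate 3 or R4W replicate 1 or 2 (adjusted p from 0.0514 to 0.104). Of the 118 wider lysosomal genes 46 were higher and 15 lower than in UUO7 (30 and 21 as deposited, against 17.6% and 30.8% of all genes), among them Arsb and Mtor, which rose by 1.25 ± 0.17 and 1.29 ± 0.25, and Igf2r by 0.35 ± 0.09.

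Between 1 and 4 weeks of recovery 4 genes rose (Ctsb, Lipa, Man2b1 and Neu1) and 4 fell (Cd63, Ctsk, Ctsl and Laptm4a), against 8.67% and 8.6% of all genes. The call of Ctsb was lost with the deposited values (adjusted p = 0.05738). None of these 8 calls held in the fit on R1W and R4W alone, where limma gave 0 higher and 0 lower, with 5 and 6 at an unadjusted p under 0.05, against 14.7% and 15.4% of all genes. Ctsk went from 30.2 ± 4.61 to 17.5 ± 2.92 rescaled FPKM (-0.76 ± 0.17, adjusted p = 0.009145). Lipa went from 40.9 ± 4.92 to 57.2 ± 3.45 (0.48 ± 0.11, adjusted p = 0.01088). Without R1W replicate 3 only 1 gene was higher and 1 lower, and 2 were lower without R1W replicate 4 or R4W replicate 1, 2 or 4. The call of Neu1 was lost without R1W replicate 2 or 3 or any 1 R4W library, that of Ctsl without R1W replicate 1, 3 or 4 or R4W replicate 1, 2 or 4, and that of Cd63 without R1W replicate 1, 3 or 4 or any 1 R4W library (adjusted p up to 0.20).

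Markers of several cell types also differed between the groups. All 16 macrophage markers had a row and none was at 0 in any library. Their sum was 97.9 to 145 rescaled FPKM in sham, 179 to 356 in UUO2, 1272 to 1467 in UUO7, 1283 to 1707 in R1W, 1150 to 2411 in R2W and 897 to 1683 in R4W. In UUO7 15 of the 16 were called higher than sham and 1, Mertk, lower, and in R4W 15 were higher and 0 lower. All 8 proximal tubule markers were lower than sham in UUO7 and 7 of 8 in R4W. In UUO7 the 6 injured tubule markers and the 8 fibroblast markers were all higher than sham, with median differences of 4.89 and 2.43, beside 3.21 for the macrophage list. All 5 lymphocyte and 3 neutrophil markers were also higher, as were 5 of 6 endothelial markers, and 7 of 8 markers of the loop and distal tubule were lower. In UUO2 13 macrophage markers were higher than sham and 2 lower, all 6 injured tubule markers were higher, and 4 fibroblast markers were higher and 1 lower. Lower in UUO2 were 7 of 8 proximal tubule, 6 of 8 loop and distal tubule, 5 of 6 endothelial and 3 of 5 podocyte markers. In R4W, as in UUO7, the injured tubule, fibroblast, lymphocyte and neutrophil markers were all higher, and 0 of the 8 loop and distal tubule markers were called. The podocyte, endothelial and urothelial sums were 113 to 159, 145 to 177 and 39.6 to 134 rescaled FPKM in R4W. In sham they were 53.6 to 61.9, 77.3 to 126 and 1.84 to 39.6. The part of none of these cell types in the lysosomal gene differences was tested.

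Within the R2W group the libraries fell apart in both respects. Replicates 1 and 3 had macrophage marker sums of 2411 and 1994 and proximal tubule sums of 1331 and 1255, and replicates 2 and 4 had 1150 and 1376, and 2604 and 2114. Ctss was at 258 and 222 rescaled FPKM in replicates 1 and 3 and at 127 and 157 in replicates 2 and 4, and Cd68 at 41.2 and 40.4 against 20.6 and 24.4. Neu1 was lower in replicates 1 and 3, at 86.8 and 92.9, than in replicates 2 and 4, at 137 and 117. In the R4W group Ctss, Cd68 and Laptm5 were lower in replicates 1 and 4 than in 2 and 3, as were the macrophage sums of 1206 and 897 against 1683 and 1648. Replicates have no order, the replicates contrasted here were picked after their values were seen, and no test was made between them.

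**Figure D4:**
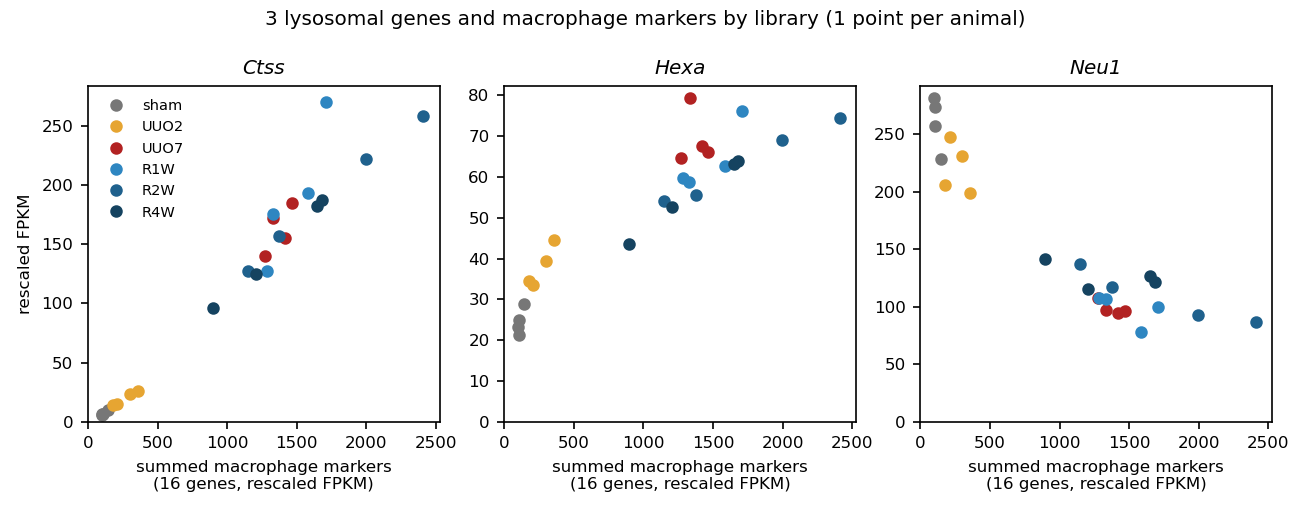
Rescaled FPKM of Ctss, Hexa and Neu1 (vertical axes) against the summed rescaled FPKM of 16 macrophage markers (horizontal axes) in each of the 24 libraries, coloured by group. Sham and UUO2 libraries lie at sums of at most 356 and all others at 897 or more, with Ctss and Hexa high and Neu1 low in the latter.

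The authors' own comparisons gave like counts. At an adjusted p under 0.05, the authors' deposited table had 16 of the 33 genes higher and 11 lower in UUO7 than in sham, against 35.8% and 37.9% of the genes it tested, and 25 of these 27 were called in the same direction here. For UUO2 against sham the authors' deposited table had 20 higher and 5 lower (26.7% and 24.4% of the genes it tested), with 22 called in the same direction here. For R4W against UUO7 the authors' deposited table had 6 higher and 14 lower (26% and 27.3% of the genes it tested), with 12 in the same direction. On the rescaled values no member was called in opposite directions in any of the 9 comparisons. Ctsa, Mcoln1, Naglu and Psap, tested on the FPKM as deposited, were called higher in 1 or more comparisons where the authors' deposited table had them lower. The rescaled and deposited values differ for UUO7 against sham as the plot of both scalings shows.

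**Figure D5:**
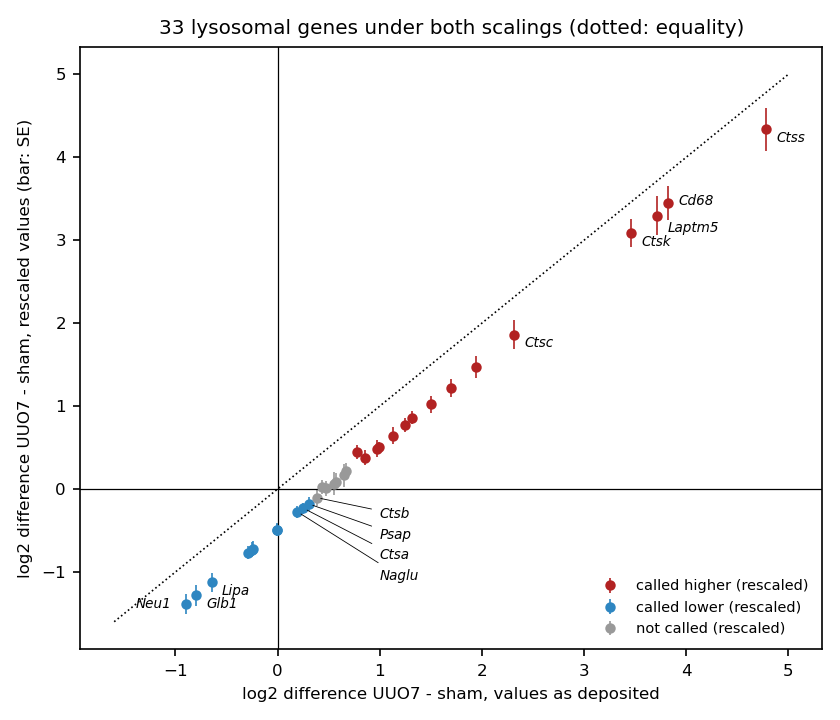
Log2 difference of FPKM + 1 between UUO7 and sham for the 33 lysosomal genes from the deposited values (horizontal axis) and from the rescaled values (vertical axis, bar: SE), coloured by the call on the rescaled values, with equality dotted. All points lie below the dotted line, and Ctsb, Psap, Ctsa and Naglu change sign, at -0.10, -0.18, -0.23 and -0.27 rescaled against 0.38, 0.31, 0.25 and 0.19 as deposited.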

How the data were processed

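PolyA RNA of 24 whole mouse kidneys, 4 in each of 6 groups, was sequenced. The submitters' processing notes name FastQC, Bowtie2, RSEM, DESeq2 and the mm10 build, without versions. The deposited table gave 14785 genes, all with a mean of at least 1, as values whose unit is not stated. They were read as FPKM, because the deposited columns sum to 717415 to 830179. Counts are not in the table, so no counting interval is given. Adjusted p-values and log2 fold changes of 15 comparisons stand in the authors' deposited table.

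Each library was divided by 1 factor, the median over 14402 genes of its ratio to each gene's geometric mean (factors from 0.784 to 1.19). All 24 libraries entered 1 limma fit (limma 3.58.1, R 4.3.3, intensity trend) on log2(rescaled FPKM + 1), with 1 coefficient per group and Benjamini-Hochberg adjustment over all genes. Values are printed from that fit unless another is named. On simulated data for UUO7 against sham over 14785 genes, 92 of 100 genes changed by a log2 fold of 1 and 95 of 100 changed by 2 were called, with 8 unchanged genes called. No other gene was changed in that simulation, its noise was normal, and the rescaling was not applied. It therefore does not cover the scaling between libraries or a comparison in which many genes change.

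Alternatives were the deposited values, pseudocounts of 0.1 and 10, a mean of at least 10, a fit on the 2 groups compared, no UUO2, a replicate block, R4W replicate 2 in R2W, and each library left out. The numbers do not pair animals: mean correlations of same-numbered deviations ran from -0.168 to 0.15. The labels count each library as 1 animal. Among the wider lysosomal genes, the 2 with the greatest rise and the 2 with the greatest fall per list in UUO7 against sham, called and with a mean of at least 5, were named, and Tfe3, Tfec, Mitf, Cst3 and Cstb whatever their values. The 33 genes and all lists were chosen with earlier results of these data known. Python 3.11.15, pandas 2.3.3 and matplotlib 3.10.9 were used for summaries and plots.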

Additional observations from a re-analysis of the deposited data

Results flagged for a closer look

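In 12 of 198 checks of 4 animals, 1 animal stood far from the other 3 of its group by Dixon's criterion, where chance gives about 9.9. The 12 fell in 7 libraries. Sham replicate 2, the library with the most adipose marker RNA of the sham group, accounted for 4 of them. It had Ctsk at 3.159 rescaled FPKM where the other sham animals had 1.92 to 2.066, and Laptm4a at 197.7 where they had 191.2 to 192. It was low in Ctsz, at 129.5 against 144.5 to 147.2, and in Cd63, at 1059 against 1267 to 1309. Without it the counts of lysosomal genes higher and lower than sham were 15 and 11 in UUO7, and 12 and 13 in R4W.

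UUO7 replicate 3 was high in Grn, at 265.1 against 193 to 202.9, and in Npc2, at 93.98 against 79.01 to 80.08. R1W replicate 2 was high in Asah1, at 60.99 against 49.12 to 50.58, and low in Psap, at 697.1 against 805.7 to 824.7. R1W replicate 1 had Ctsa at 161 against 149.3 to 150, and R1W replicate 3 had Laptm5 at 54.62 against 37.6 to 38.94. Sham replicate 3 had Npc2 at 49.82 against 47.39 to 47.8, and R2W replicate 2 had Tfeb at 25.42 against 20.84 to 21.57.

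On the rescaled values, in 6 genes every animal of 1 group lay above sham and every animal of another below it, in 11 pairs of groups that share the sham libraries. With the deposited values none of the differences below sham in these pairs was called lower. Those of Lgmn were -0.06 in R2W and -0.25 in R4W, that of Cd63 in R4W was -0.17, and the others turned positive. Lgmn was higher than sham in UUO2 and lower in R1W, R2W and R4W, with log2 differences of 1.667, 1.728 and 1.906 between the groups. Ctsa was higher in UUO2 and lower in UUO7, R1W and R2W, with differences of 0.4397, 0.5373 and 0.4244. Ctsl was higher in UUO2 and UUO7 and lower in R4W, by 1.405 and 0.8274. Ctsb was higher in UUO2 and lower in R1W (1.245), Psap likewise (0.7274), and Cd63 was higher in UUO2 and lower in R4W (1.582). The differences between UUO7 and UUO2 for Ctsa and between R4W and UUO7 for Ctsl were tested here and passed, and the other 9 pairs were not fitted here. The authors' deposited table compares the groups of each of those 9 pairs directly, all in the same direction, with log2 fold changes from -0.498 (Ctsa, R2W against UUO2) to -1.98 (Lgmn, R4W against UUO2) and adjusted p of at most 5.05e-08. UUO2 enters 10 of the 11 pairs, and library handling and group cannot be told apart there.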

How the results depend on the processing

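The scaling between libraries had the greatest effect. With the deposited values, 25 of the 33 genes were higher and 6 lower than sham in UUO7, 21 and 4 in R1W and 22 and 4 in R2W, and 4 were lower in R4W. Among differences from sham that were called or are printed, those that turned positive were, in UUO7, Ctsb 0.382, Ctsa 0.2529, Naglu 0.1945, Psap 0.3067 and Tfec 0.1505. In R1W they were Ctsb 0.04698, Ctsh 0.01693, Lgmn 0.05856, Ctsa 0.1174, Naglu 0.04097 and Psap 0.1676. In R2W they were Ctsh 0.08139, Ctsa 0.1733, Man2b1 0.0973, Naglu 0.00452 and Cd63 0.03455, and in R4W Ctsh 0.06515, Ctsl 0.03435, Ctsa 0.1036 and Man2b1 0.167. Others that had not been called also turned positive, some past the threshold, such as Ctsl in R1W (0.4466) and Ctsb in R2W and R4W (0.338 and 0.351). Fits on the 2 groups alone gave 7 genes higher in R4W than UUO7, and 0 higher and 0 lower in R4W against R1W, where fewer samples set the spread. Leaving out 1 library at a time gave 3 to 5 genes lower in R1W than UUO7, 2 to 4 higher and 8 to 12 lower in R4W than UUO7, and 1 to 4 higher and 1 to 4 lower in R4W than R1W. Counts of the other comparisons stayed within 1.5 times their value under every alternative but the deposited values. The replicate block, on numbers that do not pair animals, gave counts of 15 and 10 for UUO7 against sham. It ended 3 of 241 single-gene results, among them Psap in UUO7 against sham (adjusted p = 0.0649) and Ctsb in R1W against UUO7 (adjusted p = 0.0586). A pseudocount of 0.1 and a mean of at least 10 changed no call or direction among those that could be computed. A pseudocount of 10 ended 1, Gpnmb in UUO7 against sham (0.103, adjusted p = 0.345). Counts of reads are not in the table, so precision at low levels such as Gla, Cd68 and Ctsk in sham rests on 4 animals alone.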

Other observations

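Gpnmb, a glycoprotein of macrophage and melanocyte lysosomes, was higher at 4 weeks after reversal than at 7 days of obstruction, and was singled out after its values were seen. It was at 0.0636, 0.185, 0.0255 and 0.0748 rescaled FPKM in the sham animals and at 1.14, 0.718, 0.921 and 0.634 in UUO2. In UUO7 it was 0.770, 0.838, 0.884 and 0.842, and in R1W 1.12, 1.75, 1.17 and 1.13. In R2W it was 6.70, 1.13, 5.51 and 2.62, and in R4W 5.26, 8.22, 9.04 and 3.64. Every R4W animal lay above every UUO7 animal, with a limma difference of 1.98 on the log2(rescaled FPKM + 1) scale (adjusted p = 2.962e-05). The sum of macrophage markers was 897 to 1683 in R4W and 1272 to 1467 in UUO7, and the part of macrophages in the Gpnmb difference was not tested. The difference from sham was 0.76 in UUO7 and 2.73 in R4W. In R2W the 2 higher animals, replicates 1 and 3, were those with the higher macrophage sums. The 2 higher animals of R4W, replicates 2 and 3, likewise had its higher sums, 1683 and 1648.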
